A study of Mus musculus with 16 samples.

Results

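The genes of the major histocompatibility complex (MHC) and of antigen presentation were followed in 4 groups of sorted mouse liver cells, with class I set beside class II. Members were the array's gene names that begin with H2-, plus B2m, Tap1, Tap2, Tapbp, Psmb8, Psmb9, Psmb10, Psme1, Psme2, Cd74, Ciita, Cd1d1 and Ubd. This gave 50 genes of 28034 names, read by 78 probes, and 41 of them passed the filter on dim probes that left 23309 genes in all. All mice were of the c129/S3 strain on a Purina diet. Cells were sorted by flow cytometry into those positive for the surface antigen MIC1-1C3 (M) and for CD133 (M+133+) and those negative for both (M-133-). DDC, a porphyrinogenic compound that injures bile ducts, was given at 0.1% of the diet for 2 weeks. The groups were M+133+ DDC (4 samples), M-133- DDC (4 samples), M+133+ untreated (4 samples) and M-133- untreated (2 samples). The design counts the samples as biological replicates, so p-values measure the spread between these samples. Each M-133- sample shares the leading number of its title with an M+133+ sample of its treatment. The labels do not explain this number as a shared mouse, and the main tests did not pair samples by it. RNA was amplified before labelling and hybridised to 1-colour Agilent arrays.

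MHC class I molecules display peptides made in the cytosol. The proteasome, or its interferon-induced form with the subunits Psmb8, Psmb9 and Psmb10 and the activator Psme1 with Psme2, cuts the peptides, the transporter Tap1 with Tap2 moves them into the endoplasmic reticulum, and Tapbp helps to load them onto a heavy chain bound to the light chain B2m. Class II molecules pair an alpha with a beta chain (H2-Aa with H2-Ab1, H2-Ea with H2-Eb1), travel with the invariant chain Cd74, are loaded with the help of H2-DMa and H2-DMb1, and depend on the transactivator Ciita. Class I is found on nearly all nucleated cells, while class II is typical of dendritic cells, macrophages such as liver Kupffer cells, and B cells. Ubd, in the MHC region, encodes FAT10, a ubiquitin-like modifier that interferon gamma and tumour necrosis factor induce and that sends proteins to the proteasome.

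Levels are log2 processed signals minus the 75th percentile of their array, and differences are on the log2 scale with their moderated SE from a limma model over all 14 samples. Calls were made at 0.05 after Benjamini-Hochberg adjustment across the 23309 genes. Among bile duct markers, 7 of 8 were called higher in M+133+ than in M-133- cells after DDC, and 8 of 8 in untreated livers. Of 7 hepatocyte markers tested, 6 were called lower in both treatments. Endothelial markers were called lower in 7 of 8 in both treatments, and stellate cell markers in 7 of 8 after DDC and in 1 of 8 in untreated livers. The summed stellate marker level was 1.74 to 3.76 in M+133+ DDC, 6.57 to 7.52 in M-133- DDC, 2.46 to 4.23 in M+133+ untreated and 4.59 to 4.97 in M-133- untreated samples. The sorts thus differed in markers of several cell types, whose part in the differences between sorts was not tested, and in such bulk samples fewer cells of a type and less RNA per cell cannot be told apart. Of the 16 arrays on 5 slides, no slide held both sorts after DDC.

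Among the members, 9 did not pass the filter (H2-DMb2, H2-M1, H2-M9, H2-M10.1, H2-M10.3, H2-M10.4, H2-M10.5, H2-M10.6 and H2-M11). Those that passed were 17 class I heavy chains, 11 class II genes, 5 genes of the light chain, peptide loading or CD1, 5 genes of the immunoproteasome and its activator, Ubd, and 2 genes of the MHC region that encode no MHC chain (H2-Ke2 and H2-Ke6). Ubd passed only through the DDC groups, and Ciita and H2-Eb2 only through the M+133+ groups, so the 41 are not a neutral selection.

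**Figure D1:**
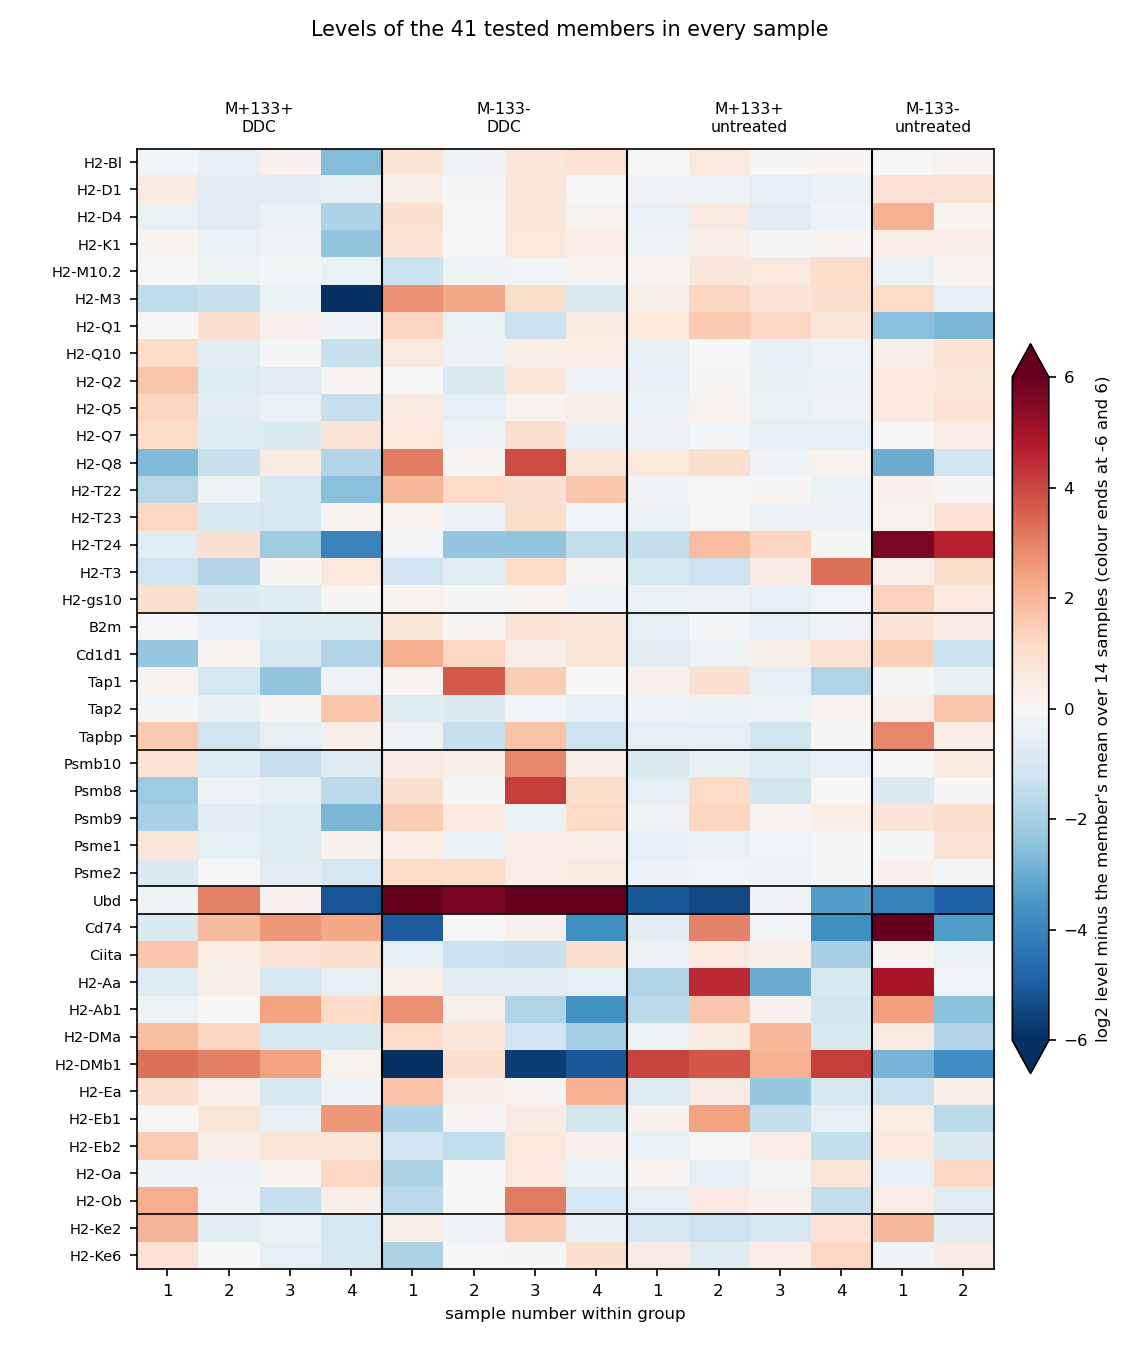
Heat map of the 41 tested members (rows, by role) in 14 samples (columns, by group), each cell the log2 level minus the member's own mean. Ubd stands out in the 4 M-133- DDC samples, H2-DMb1 is high in both M+133+ groups, and H2-T24 is high in the 2 M-133- untreated samples.

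After DDC, M+133+ cells had less of several class I pathway genes than M-133- cells had, and more of 1 class II gene. Of the 41 members, 9 were called lower, against 6.48% of all genes, and 1 was called higher, against 6.44% of all genes (12.9% in either direction). Lower were 3 of 17 class I heavy chains (H2-T22, H2-Q8 and H2-M3), the light chain B2m, the CD1 lipid-presenting molecule Cd1d1, 3 of 5 genes of the immunoproteasome and its activator (Psmb8, Psmb9 and Psme2), and Ubd. Higher was H2-DMb1. H2-Bl, a class I heavy chain, was not called by its brightest probe (-1.28), while its 2 others were lower (-4.07, adjusted p = 0.013, and -2.73, adjusted p = 0.039), and counting any probe 5 of 17 heavy chains were lower. The median difference was -0.42 over the class I heavy chains and -1.56 over the immunoproteasome and activator genes, against 0.31 over all genes tested. Over the 11 class II genes it was 1.29, the value of H2-Eb2, which like Ciita passed the filter only through M+133+ groups. Without these 2 it was 0.63, and with all 11 it was 0.29 under quantile normalisation, 0.51 with normexp background correction and 0.65 with the slide as a block. The 2 groups did not overlap for 8 members, all lower in M+133+ cells, a pattern that 7.05% of all genes showed. None was apart in the other direction, against 7.67% of all genes.

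Ubd had the widest gap. Its level was -3.96, -0.71, -3.41 and -8.82 in M+133+ DDC samples, against 2.70, 2.04, 2.53 and 3.21 in M-133- DDC samples. The groups were fully apart, and 3 of 4 M+133+ DDC samples measured it well above background. The difference was -6.85 ± 1.42 (adjusted p = 0.00454), and lay between -8.02 and -5.31 when single samples were left out, M+133+ DDC sample 4 at -8.82 being the one not above background. The authors' deposited table gives 99.5-fold in the same direction (M-133- over M+133+) with a false discovery rate of 1.17%. Only the first 30 of the probe's 60 bases are shown to identify the target (chr17:37332688-37332747 of mm9, plus strand).
Ubd A_52_P338066: agccgatttcctctgagctattaccaatca

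H2-T22 encodes a class Ib heavy chain that gamma delta T cells can recognise. It was at 1.29, 2.70, 1.97 and 0.40 in M+133+ DDC samples, against 4.92, 4.10, 3.83 and 4.58 in M-133- DDC samples. The difference was -2.76 ± 0.44 (adjusted p = 0.00064), without overlap. Of its 2 other probes, 1 was also called lower (-3.36) and 1 was not (-1.43, adjusted p = 0.461).

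B2m was at 4.87, 4.40, 4.13 and 4.15 in M+133+ DDC samples, against 5.58, 4.99, 5.64 and 5.54 in M-133- DDC samples. Every M+133+ DDC sample lay below every M-133- DDC sample, by a small step. The difference was -1.05 ± 0.23 (adjusted p = 0.00604). A further B2m probe gave -1.58 (adjusted p = 0.001), and the third gave -2.22 (adjusted p = 0.073).

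Psme2, the beta subunit of the proteasome activator PA28, was at 2.96, 3.80, 3.18 and 2.85 in M+133+ DDC samples, against 5.01, 4.93, 4.29 and 4.38 in M-133- DDC samples. The difference was -1.46 ± 0.28 (adjusted p = 0.00261), and its second probe gave -1.41. Its partner subunit Psme1 differed by -0.32 ± 0.32 (adjusted p = 0.59), with overlapping groups. Psmb9, a catalytic subunit, was at -0.26, 1.07, 0.92 and -1.04 in M+133+ DDC samples, against 3.17, 2.32, 1.31 and 2.92 in M-133- DDC samples, a difference of -2.26 ± 0.57 (adjusted p = 0.0153). Psmb8 differed by -2.65 ± 0.81 (adjusted p = 0.0428). Its level was -0.98, 0.90, 0.74 and -0.44 in M+133+ DDC samples, against 2.09, 1.13, 5.33 and 2.26 in M-133- DDC samples. Psmb10, the third inducible subunit, was not called (-1.56 ± 0.56, adjusted p = 0.0832).

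Cd1d1 was at 0.11, 2.55, 1.38 and 0.58 in M+133+ DDC samples, against 4.57, 3.62, 2.78 and 3.08 in M-133- DDC samples. The groups did not overlap, and the difference was -2.36 ± 0.65 (adjusted p = 0.0264). H2-Q8, a Qa-region class Ib chain, differed by -3.27 ± 0.88 (adjusted p = 0.0227). It lay at -2.59, -1.25, 0.59 and -1.68 in M+133+ DDC samples and at 3.18, 0.17, 3.98 and 0.82 in M-133- DDC samples, and the highest M+133+ DDC sample lay above the lowest M-133- DDC sample. The classical heavy chain H2-K1 was not called (-1.17 ± 0.41, adjusted p = 0.0779), nor was H2-D1 (-0.54 ± 0.25, adjusted p = 0.198). H2-K1 stood at 5.51, 4.93, 5.03 and 3.00 in M+133+ DDC samples, against 6.13, 5.28, 5.95 and 5.77 in M-133- DDC samples, and its 3 other probes gave differences between -0.36 and 0.10. Tap1 was at -2.39, -3.67, -4.99 and -2.88 in M+133+ DDC samples, against -2.50, 1.09, -1.10 and -2.64 in M-133- DDC samples (-2.19 ± 0.91, adjusted p = 0.137).

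With the slide as a block, 3 of the 9 remained called lower (Ubd, H2-T22 and B2m), and H2-DMb1 remained higher. The call of B2m was lost without the intensity trend (adjusted p = 0.11), that of Psmb8 in 10 and that of H2-M3 in 9 of 14 omissions of 1 sample, and those of Cd1d1 and H2-Q8 in 4 each. Under quantile normalisation, the calls of Psmb8, Psme2 and Cd1d1 were lost, and all 5 immunoproteasome and activator genes kept a negative difference. H2-M3, which presents formylated peptides, is read by 2 probes that disagree. The brighter was at -3.15, -2.93, -2.01 and -7.67 in M+133+ DDC samples, against 1.11, 0.64, -0.54 and -2.44 in M-133- DDC samples, with overlap. It gave -3.63 ± 1.09 (adjusted p = 0.0397) between the sorts after DDC and the other gave 0.03 (adjusted p = 0.984). In untreated livers the brighter was not called (0.53), and the other was lower (-3.63, adjusted p = 0.009).

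**Figure D2:**
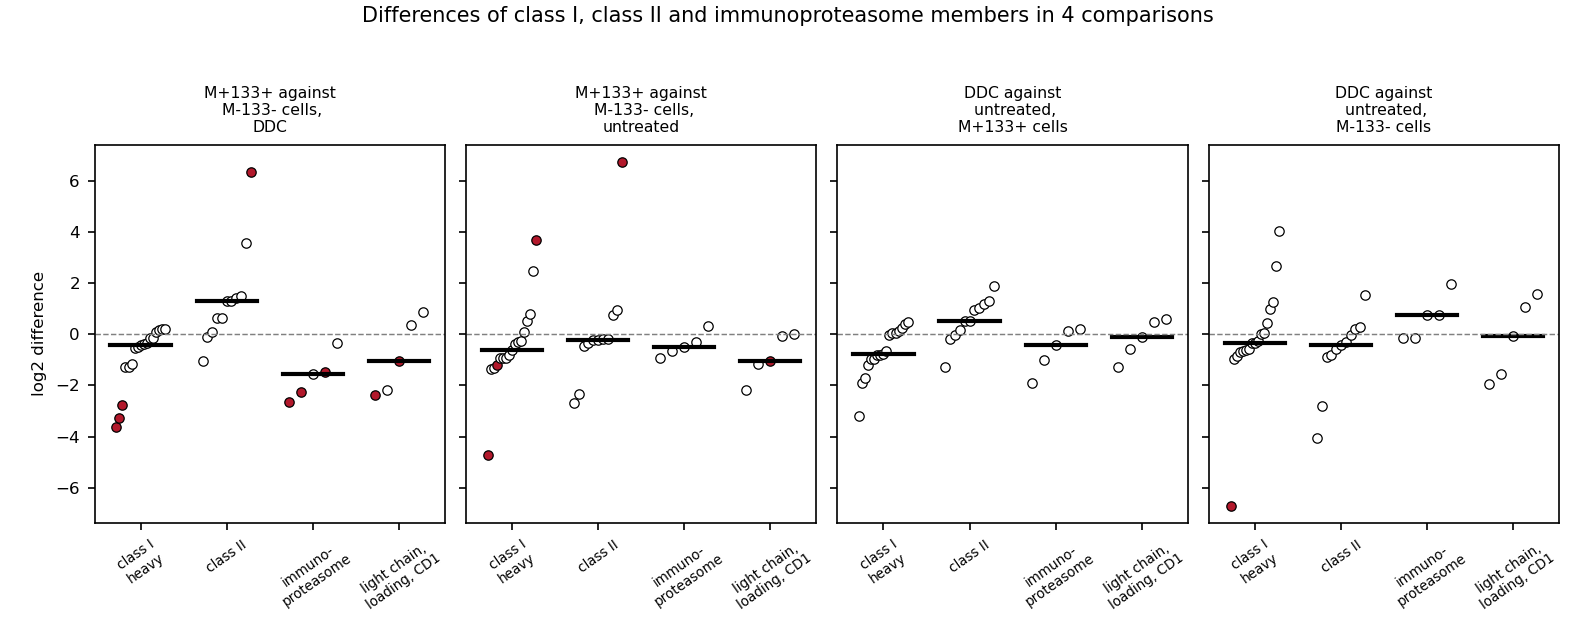
Log2 differences of members (points) in 4 comparisons, by role, with called members in red and the median of each role as a bar. Between the sorts after DDC, 13 of 17 class I heavy chains and 5 of 5 immunoproteasome and activator genes lie below 0, and H2-DMb1 is the red class II point.

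Promoters were sought for all 50 members. RefSeq promoters of GRCm38.p6, from 250 bases before to 50 bases after the start, were found for 38 of 50 members (the first listed start of a gene was used). Of these 38, 4 (H2-T22, H2-T23, B2m and Psme1) held the core of the interferon-stimulated response element on either strand (pairs of GAAA parted by 2 free bases), against 3.44% of 32851 promoters. GATTGG, the inverted CCAAT of the Y box bound by NF-Y, was sought on either strand. It was in 15 of 19 class I heavy chain promoters and in 7 of 8 class II promoters, against 16.1% of all. Each of these class II promoters held it on the gene's own strand. In class I heavy chains it lay on the opposite strand, as a forward CCAAT, except for a match in H2-T22. All members that did not pass the filter on dim probes are in these counts. The kappa B palindrome known from class I promoters was in H2-D1 and H2-K1, against 0.0304% of all. A match describes letters only and is not a shown binding site. The 250 bases before the start of B2m (chr2:122147437-122147686, plus strand) and of H2-T22 (chr17:36042743-36042992, minus strand), the 2 class I members called lower that hold the interferon core, are set beside those of H2-DMb1 (chr17:34152941-34153190, plus strand), the class II member called higher. These promoters were picked by their calls after DDC. The other holders of the core, H2-T23 and Psme1, were not called. Their means were 4.09 and 5.08 in M+133+ DDC samples, against 4.44 and 5.40 in M-133- DDC samples. H2-M3, Psmb8, Psmb9, Psme2 and Ubd were called lower, and their promoters held no core. Capitals mark the matches.
B2m promoter: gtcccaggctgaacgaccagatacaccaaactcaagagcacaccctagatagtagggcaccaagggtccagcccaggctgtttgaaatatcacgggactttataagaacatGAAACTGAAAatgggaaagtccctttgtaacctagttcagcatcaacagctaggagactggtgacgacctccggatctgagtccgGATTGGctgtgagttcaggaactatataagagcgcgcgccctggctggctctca
H2-T22 promoter: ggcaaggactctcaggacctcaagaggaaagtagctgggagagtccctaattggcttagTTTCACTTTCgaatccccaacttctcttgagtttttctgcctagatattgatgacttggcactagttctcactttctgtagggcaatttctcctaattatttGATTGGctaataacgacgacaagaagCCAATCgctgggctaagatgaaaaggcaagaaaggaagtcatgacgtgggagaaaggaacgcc
H2-DMb1 promoter: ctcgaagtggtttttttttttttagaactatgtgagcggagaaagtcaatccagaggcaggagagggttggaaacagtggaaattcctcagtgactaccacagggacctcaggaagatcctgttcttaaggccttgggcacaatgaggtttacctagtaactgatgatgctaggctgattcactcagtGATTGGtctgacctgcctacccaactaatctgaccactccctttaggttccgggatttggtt
Counted from the start, the interferon core lies at -139 to -130 in B2m and, on the opposite strand, at -191 to -182 in H2-T22. GATTGG lies at -54 to -49 in B2m and at -62 to -57 in H2-DMb1. H2-T22 has it at -89 to -84 and, on the opposite strand, at -63 to -58.

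In untreated livers, H2-Q1 and H2-DMb1 were called higher in M+133+ than in M-133- cells, and H2-T24, H2-D1 and B2m were called lower. That is 2 members higher, against 3.63% of all genes, and 3 lower, against 5.16% of all genes (8.79% in either direction). The median difference was -0.62 over the class I heavy chains and -0.21 over class II, against -0.07 over all genes. The groups did not overlap for 4 members that were higher and 13 that were lower, against 15.8% and 17.9% of all genes. Quantile normalisation, which set the median of the class I heavy chains at 0.11, turned the direction of B2m (0.11) and H2-D1 (0.08). Under 10 alternatives to the fit, the call of H2-D1 was kept in 3, lost in 6 and reversed in 1. That of B2m was kept in 5, lost in 4 and reversed in 1. The authors' deposited table gives a signed fold of M-133- over M+133+ of -1.02 for B2m and 1.06 for H2-D1, at false discovery rates of 59.9% and 55.5%.

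H2-Q1, a Qa-region class I gene, was at 1.81, 2.77, 2.45 and 1.92 in M+133+ untreated samples, against -1.33 and -1.55 in M-133- untreated samples. The difference was 3.68 ± 0.67 (adjusted p = 0.00305), and it stayed called without any single sample. After DDC the sorts overlapped, with 1.18, 2.17, 1.46 and 0.97 in M+133+ DDC samples and 2.51, 0.79, -0.08 and 1.76 in M-133- DDC samples (0.20 ± 0.55). The difference between these differences was not called (-3.48 ± 0.87, adjusted p = 0.143).

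H2-T24, a T-region class I gene, was at -3.65, -0.36, -0.94 and -2.15 in M+133+ untreated samples, against 3.41 and 2.46 in M-133- untreated samples. The difference was -4.71 ± 1.25 (adjusted p = 0.0285). The call was lost in 6 of 14 omissions of 1 sample, and over the 14 the difference lay between -5.18 and -2.44. The brightest probe of a gene was chosen anew in each omission. In these losses, except that of M+133+ untreated sample 1, the second probe of H2-T24 became the brighter and gave the value. H2-D1, a classical heavy chain, was at 5.38, 5.27, 5.12 and 5.18 in M+133+ untreated samples, against 6.45 and 6.43 in M-133- untreated samples (-1.20 ± 0.31, adjusted p = 0.0245). B2m was at 4.30, 4.74, 4.35 and 4.58 in M+133+ untreated samples, against 5.65 and 5.39 in M-133- untreated samples (-1.02 ± 0.28, adjusted p = 0.0329). Neither pair of groups overlapped, but the call was lost in 4 of 14 omissions of 1 sample for H2-D1 and in 5 of 14 for B2m, among them either M-133- untreated sample. H2-K1 was not called (-0.37 ± 0.50, adjusted p = 0.796). Within slide 2 (1 array a group), the differences were 0.07 for H2-D1, -0.67 for B2m, 3.17 for H2-Q1 and -7.92 for H2-T24. Within slide 4, which held a repeat array of the same M-133- untreated sample, they were -2.24 for H2-D1, -1.27 for B2m, 3.44 for H2-Q1 and -3.98 for H2-T24.

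**Figure D3:**
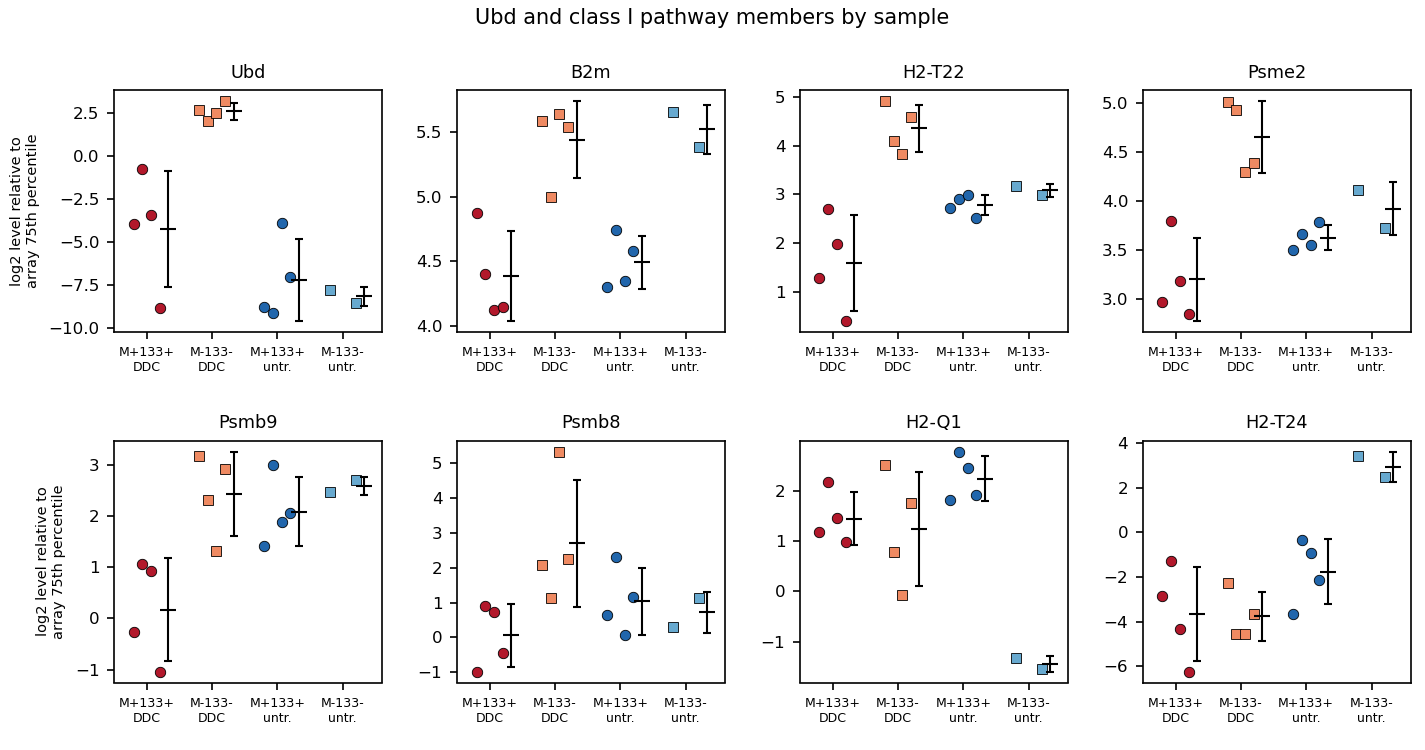
Log2 levels of Ubd and 7 class I pathway members in every sample (points) with group means and SD (bars). Ubd lies between 2.04 and 3.21 in all M-133- DDC samples and at or below -0.71 in every other sample, and H2-Q1 and H2-T24 set the 2 M-133- untreated samples apart in opposite directions.

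H2-Q10 encodes a secreted class I heavy chain made mainly by the liver, and its 5 probes gave different answers. The brightest (chr17:35610210-35610269 of mm9, plus strand), used above, gave -0.50 (adjusted p = 0.473) between the sorts after DDC and -0.91 (adjusted p = 0.364) in untreated livers. It shares 35 of its 60 bases in an unbroken run with the probe of H2-Q5 (chr17:36246864-36247298, minus strand), the longest run between probes of different members. A probe at chr17:35607907-35607966 shares a run of 20 bases with an H2-K1 probe, and 2 further probes (chr17:35610468-35610527 and chr17:35611365-35611424) share runs of 14 and 11 bases with other members. The probes are shown for this overlap, with the longest run shared with another member in capitals and the last 2 limited to the 30 bases around it.
H2-Q10 A_51_P496997: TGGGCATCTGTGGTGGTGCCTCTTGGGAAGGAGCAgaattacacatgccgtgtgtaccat
H2-Q5 A_51_P400752: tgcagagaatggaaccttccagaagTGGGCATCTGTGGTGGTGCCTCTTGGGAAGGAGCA
H2-Q10 A_52_P428354: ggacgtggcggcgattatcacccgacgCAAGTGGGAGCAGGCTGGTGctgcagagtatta
H2-Q10 A_51_P230267: ctggtggtaTTTGTGATGAAGAGaaggaga
H2-Q10 A_51_P230269: tgagaATAAGAATCTGgatgtgaactttat
Of these H2-Q10 probes, the last 3 were called lower in M+133+ cells in both treatments. A_51_P230267 gave -5.08 after DDC and -6.32 in untreated livers, A_51_P230269 gave -4.30 and -4.35, and A_52_P428354 gave -2.56 and -3.04. The fifth, A_52_P112219, whose longest shared run is 8 bases, was not called in either (-2.07, adjusted p = 0.107, and 0.34, adjusted p = 0.922).

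The level of A_51_P230267 was -0.96, -0.17, -3.24 and -2.69 in M+133+ DDC samples, against 3.78, 3.38, 3.14 and 2.95 in M-133- DDC samples. It was -2.78, -2.45, -1.89 and -2.13 in M+133+ untreated samples, against 4.74 and 3.27 in M-133- untreated samples. Neither pair of groups overlapped. The summed hepatocyte marker level was also lower in the M+133+ groups. It was 6.00 to 6.86 in M+133+ DDC, 7.56 to 8.45 in M-133- DDC, 5.62 to 6.31 in M+133+ untreated and 7.79 to 9.34 in M-133- untreated samples. Its part in the result was not tested. Over all 78 member probes, 8 probes of 7 genes shared a run of at least 20 bases with a probe of another member. For 5 of these genes (H2-Q2, H2-Q5, H2-Q7, H2-Q10 and H2-T23) that probe gave the value used, which cannot be assigned to 1 gene alone.

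**Figure D4:**
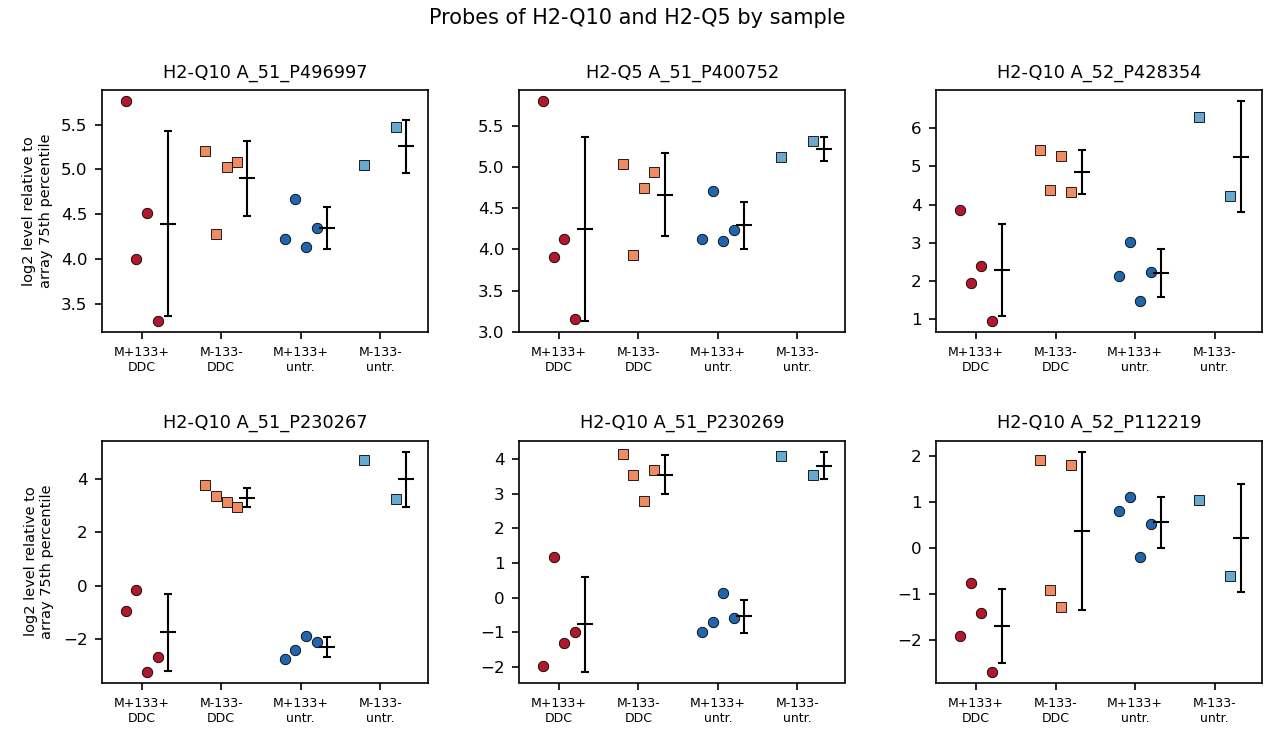
Log2 levels read by the 5 probes of H2-Q10 and the probe of H2-Q5 in every sample (points) with group means and SD (bars). The brightest H2-Q10 probe and the H2-Q5 probe both overlap between the sorts after DDC, while A_51_P230267 and A_51_P230269 separate M+133+ from M-133- samples in both treatments.

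None of the H2-A and H2-E chains of class II was called in any comparison, nor was the invariant chain. Cd74 was at -1.35, 1.43, 2.13 and 1.80 in M+133+ DDC samples, against -5.45, -0.48, -0.17 and -4.14 in M-133- DDC samples (3.57 ± 1.96, adjusted p = 0.276). In untreated livers it was at -1.15, 2.48, -0.64 and -4.14 in M+133+ samples, against 6.82 and -3.84 in M-133- samples (-2.35 ± 2.40, adjusted p = 0.706). The 2 M-133- untreated samples were the highest and among the lowest of all 14.

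H2-Aa showed the same sample as high. It was between -4.64 and -3.28 in M+133+ DDC samples and between -4.32 and -3.36 in M-133- DDC samples, while untreated it was at -5.46, 0.86, -6.60 and -4.60 in M+133+ samples and at 1.32 and -3.82 in M-133- samples. H2-Ab1 was at -2.50, -2.20, 0.23 and -0.97 in M+133+ DDC samples, 0.54, -1.90, -4.01 and -5.80 in M-133- DDC samples, -3.80, -0.59, -1.95 and -3.27 in M+133+ untreated samples, and 0.27 and -4.67 in M-133- untreated samples. Its sort difference was 1.43 ± 1.33 after DDC and -0.20 ± 1.63 untreated. H2-Ab1 has 4 kept probes, and those not used read M-133- DDC sample 1 at -4.32, -3.66 and -4.03, against 0.54 by the probe used. By each of them the sorts overlapped after DDC. For H2-Eb1 the sort difference was 1.31 ± 0.95 after DDC and 0.77 ± 1.16 untreated. Its levels were -3.71, -2.96, -4.16 and -1.07 in M+133+ DDC samples, -5.54, -3.59, -3.20 and -4.80 in M-133- DDC samples, -3.43, -1.29, -5.11 and -4.18 in M+133+ untreated samples and -3.23 and -5.32 in M-133- untreated samples.

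M-133- untreated sample 1, the sample highest in Cd74 and H2-Aa, was also highest in Tapbp by the probe used (7.34). The second Tapbp probe was at -0.83 in this sample and at 2.65 in M-133- untreated sample 2. Kupffer cell and macrophage markers were also high in M-133- untreated sample 1. The summed level of that list was 4.73 in it and 0.16 in M-133- untreated sample 2, with 13 and 9 of 13 markers well above background. Of the 13, 12 were higher in sample 1 than in sample 2, by a median of 4.83 over all 13 (from -0.19 for C1qb to 10.51 for Cd163). Csf1r and Cd68 were lower in both M-133- untreated samples than in every M+133+ untreated sample, and Csf1r was between 0.30 and 2.88 in M+133+ untreated samples, against -4.24 and -4.95 in M-133- untreated samples. In the other groups the summed level was -0.94 to 3.91 in M+133+ DDC, 2.76 to 4.71 in M-133- DDC and 1.60 to 3.01 in M+133+ untreated samples. Csf1r and Cd68 carried the sum in M+133+ untreated samples, where every other marker of the list lay at or below -2.04. Other lists differed in direction between the M-133- untreated samples. The summed dendritic cell level was 4.23 in sample 1 and 4.96 in sample 2, carried by Zbtb46 (4.11 and 4.94). For B cells it was -0.46 and 0.32, and for the list of any leukocyte 0.21 and -2.23. The part of any of these cells in the class II values was not tested. Without M-133- untreated sample 1 the class II median of the DDC difference in M-133- cells was 0.67, against -0.42 with it.

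H2-DMb1, a chain of the H2-DM editor that exchanges class II peptides, was the class II member called in both sort comparisons. It was at 1.43, 1.16, 0.58 and -1.65 in M+133+ DDC samples, against -8.57, -0.83, -7.50 and -6.92 in M-133- DDC samples (6.34 ± 1.33, adjusted p = 0.00486). In untreated livers it was at 2.19, 1.88, 0.23 and 2.28 in M+133+ samples, against -4.62 and -5.55 in M-133- samples (6.73 ± 1.63, adjusted p = 0.0176). In M-133- DDC cells 1 of 4 samples measured it well above background. In the authors' deposited table its signed fold of M-133- over M+133+ is -58.8 after DDC and -200 untreated, at false discovery rates of 3.51% and 0.25%. The untreated call was lost without either M-133- untreated sample. Its second probe did not show the same step, with 2.08 (adjusted p = 0.056) after DDC and 0.71 (adjusted p = 0.759) untreated. The 2 probes lie at chr17:34297109-34297168 and chr17:34294265-34294324 of mm9, plus strand, and are shown (the first for 30 bases) because the call rests on the first.
H2-DMb1 A_51_P278868: tccttgtcacgagggcaccgtgtcttaggt
H2-DMb1 A_52_P146877: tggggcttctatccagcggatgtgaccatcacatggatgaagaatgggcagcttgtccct

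H2-DMa, its partner chain, was not called in either sort comparison (0.62 ± 0.95 after DDC and 0.95 ± 1.17 untreated). It was at 0.23, -0.27, -2.57 and -2.45 in M+133+ DDC samples, -0.45, -0.89, -2.69 and -3.53 in M-133- DDC samples, -1.84, -1.01, 0.44 and -2.47 in M+133+ untreated samples and -1.0 and -3.34 in M-133- untreated samples, with overlap throughout. Ciita was at -3.92, -5.11, -4.77 and -4.57 in M+133+ DDC samples, -6.13, -6.83, -6.89 and -4.54 in M-133- DDC samples, -5.92, -4.96, -5.15 and -7.53 in M+133+ untreated samples and -5.41 and -5.94 in M-133- untreated samples. It was above background in 1 of 4 M-133- DDC and 0 of 2 M-133- untreated samples, so levels there are near the limit of the array. Its differences between the sorts were 1.51 ± 0.74 (adjusted p = 0.219) after DDC and -0.21 ± 0.91 (adjusted p = 0.948) untreated, with overlapping groups.

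**Figure D5:**
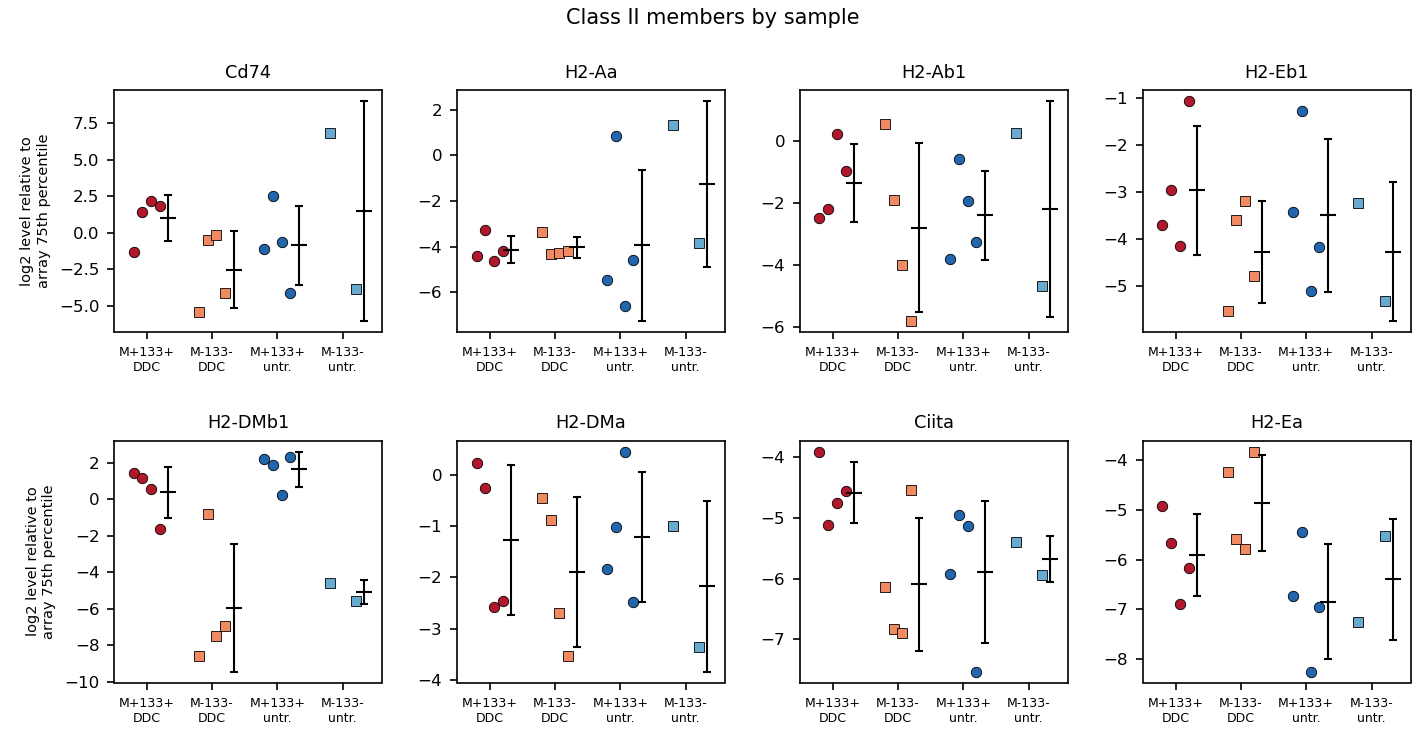
Log2 levels of 8 class II members in every sample (points) with group means and SD (bars). Cd74 reaches 6.82 and H2-Aa 1.32 in 1 of 2 M-133- untreated samples, and H2-DMb1 lies between -1.65 and 2.28 in all M+133+ samples.

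Between DDC and untreated samples of a sort, few members and few genes in all were called. In M-133- cells 1 was called higher, against 0.613% of all genes, and 1 lower, against 0.403% of all genes (1.02% in either direction). Cell type markers differed between these groups too. The summed endothelial level was 3.63 to 6.5 in M-133- DDC samples, against 8.16 to 8.99 in M-133- untreated samples (none of 8 called by limma, 5 of 8 at an unadjusted p under 0.05), and the summed bile duct level was 3.66 to 5.79 in M-133- DDC samples, against -0.18 to 1.14 in M-133- untreated samples (2 of 8 called higher). Spp1 and Sox9 carried the bile duct sum. Of the 8 bile duct markers, 7 had a positive difference, the median over all 8 was 1.73, and Krt7 was at -0.27. Of 8 stellate markers, 2 were called higher, and the part of these cells in the result was not tested. Ubd was at 2.70, 2.04, 2.53 and 3.21 in M-133- DDC samples, against -7.74 and -8.52 in M-133- untreated samples, where it was not well above background. The fitted difference was 10.75 ± 1.74 (adjusted p = 0.00792). Set against the lowest signal measured above background, this is at least 384-fold higher after DDC. The authors' deposited table lists 1623-fold at a false discovery rate of 0%. Within slides the difference was 10.45 (slide 1, 1 array a group) and 11.65 (slide 2, 2 arrays against 1). The call was lost without either M-133- untreated sample, at adjusted p-values up to 0.0688, while the difference stayed at 10.36 or more.

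H2-T24 was at -2.26, -4.55, -4.57 and -3.67 in M-133- DDC samples, against 3.41 and 2.46 in M-133- untreated samples, without overlap. The difference was -6.70 ± 1.25 (adjusted p = 0.0187), and its second probe was not called (-3.33). The call was lost in 5 of 14 omissions of 1 sample (M+133+ DDC sample 2, M+133+ untreated sample 4, M-133- DDC sample 1 and either M-133- untreated sample). Over the 14 the difference lay between -6.73 and -2.53. In each of these 5 the second probe became the brighter and gave the value, so the loss goes with a change of probe. H2-Q1 (2.68 ± 0.67, adjusted p = 0.0787) and H2-Q8 (4.03 ± 1.08, adjusted p = 0.104) did not pass. The groups did not overlap for 6 members that were higher and 5 that were lower, against 7.12% and 12.7% of all genes. The median DDC difference in M-133- cells was -0.35 over class I heavy chains, 0.74 over the immunoproteasome and activator genes and -0.42 over class II, against -0.36 over all genes.

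In M+133+ cells DDC led to no call among the members by limma, against 0.146% of all genes called higher and 0.0944% lower (0.24% in either direction), and 3 of 41 members had an unadjusted p under 0.05, against 12.5% of all genes. These were H2-M3 (-3.18 ± 1.09), Psmb9 (-1.92 ± 0.57) and H2-T22 (-1.19 ± 0.44), all lower. For H2-M3 and Psmb9 the groups did not overlap, as for H2-M10.2, all lower, against 4.26% of all genes. No member was apart and higher, against 4.08% of all genes. Psmb9 was at -0.26, 1.07, 0.92 and -1.04 in M+133+ DDC samples, against 1.42, 3.01, 1.88 and 2.05 in M+133+ untreated samples (adjusted p = 0.186). Ubd differed by 2.95 ± 1.42 (adjusted p = 0.415). It was at -3.96, -0.71, -3.41 and -8.82 in M+133+ DDC samples, against -8.76, -9.08, -3.86 and -7.00 in M+133+ untreated samples, where 1 of 4 measured it well above background. The highest of these, M+133+ DDC sample 2, also had the highest summed Kupffer cell and macrophage marker level of the M+133+ samples (3.91), and the part of such cells was not tested. The median was -0.75 over class I heavy chains and 0.53 over class II, against 0.06 over all genes.

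The DDC difference in M+133+ cells minus that in M-133- cells was called for none of the members by limma, against 0.0601% of all genes called higher and 0.197% lower (0.257% in either direction), with 11 members of 41 at an unadjusted p under 0.05 (3 higher and 8 lower), against 9.99% of all genes. For Ubd it was -7.80 ± 2.25 (adjusted p = 0.217), for H2-Q8 -5.73 ± 1.39 (adjusted p = 0.131), for H2-T22 -2.47 ± 0.69 (adjusted p = 0.197) and for Cd74 5.91 ± 3.09 (adjusted p = 0.558). A different DDC effect in the 2 sorts was therefore not shown for any class I or class II gene.

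Of 40 further genes of the pathway, all tested, 5 were lower and 2 higher in M+133+ than in M-133- cells after DDC, against 6.48% and 6.44% of all genes. In untreated livers 6 were lower and none higher by limma, against 5.16% and 3.63%. Azgp1, a secreted class I-like protein, differed most, by -8.86 after DDC and -9.58 untreated. The lysosomal proteases Ctsl (-1.51 and -1.95) and Lgmn (-2.32 and -3.78), which process the invariant chain and antigens, and the transcription factor Irf8 (-3.57 and -6.32) were also lower in both. Irf1, an activator of class I and immunoproteasome genes, was lower after DDC (-1.47 ± 0.39, adjusted p = 0.0203). Called higher after DDC were the interferon gamma receptor chain Ifngr1 (1.30) and the NF-Y subunit Nfyc (2.71). Called lower in untreated livers and not after DDC were Fcgrt, the heavy chain of the neonatal Fc receptor (-5.01), and the protease Ctsb (-1.63), and the differences between treatments were not called for any of the 40. With DDC in M-133- cells Fcgrt (-3.52) and Nfya (-4.13) were lower, against 0.403% of all genes, and in M+133+ cells none of the 40 was called.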

How the data were processed

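Sorted liver cells were profiled on 16 one-colour arrays for 14 samples. Per the file headers, the deposited processed signal is an intensity, background-subtracted by the scanner software (Feature Extraction 10.5.1.1) without scaling between arrays, and the raw mean and background median are intensities too. The authors' deposited table holds signed fold scores and false discovery rates in percent, and the submitters' processing notes name limma. Array annotation is on mm9. Gene names came from the files or RefSeq.

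Outlier-flagged spots were left out. The log2 signal minus each array's 75th percentile (signal 603 to 2732) was averaged over spots, then repeat arrays. That percentile was 603, 706 and 2081 on M-133- untreated arrays, against 1690 to 2732 on M+133+ untreated arrays. The part of array brightness in the untreated sort differences was not tested. Kept were probes measured well above background by a share of 0.5 or more of the samples in any group (60.3% to 77.3% of probes passed that mark per array), with the brightest per gene. Limma 3.58.1 (R 4.3.3, eBayes with trend) fitted all 14 samples, two-sided. The number of arrays limits precision. Probes of 1 gene were tested in a fit over all kept probes. The fit was tested on simulated data. Called members, and a listed set that includes H2-K1, H2-D1, Cd74 and Ciita, are named with their values per sample in the comparisons described. The members and lists were chosen with earlier results of these data known. Alternatives covered background correction, normalization, filter, probe choice, trend, slide, replicate numbers, repeat arrays and single omissions.

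The replicate numbers were not taken to pair samples (deviations of same-numbered samples correlated at -0.153 to 0.076). The 2 M-133- untreated samples deviate from their own mean as mirror images, so their correlations cannot decide this. One sample of 2 in M-133- untreated cells, left out, leaves 1 that is assumed to vary like the other groups.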

Additional observations from a re-analysis of the deposited data

Results flagged for a closer look

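In groups of 4 samples, a sample was noted when its gap to the nearest other sample exceeded, as a share of the group's range, the 95% critical value of Dixon's test. This held for 5 of 123 group and member combinations, and chance gives about 1 in 20. Psmb10 was at 5.93 in M-133- DDC sample 3, against 3.42 to 3.56 in the other 3, and Psmb8 was also highest in that sample. H2-Aa was at -3.36 in M-133- DDC sample 1, against -4.32 to -4.20 in the others. B2m was at 4.99 in M-133- DDC sample 2, against 5.54 to 5.64, and Psme1 was at 4.78 in the same sample, against 5.56 to 5.65. H2-Ke2, which encodes no MHC chain, was at 3.54 in M+133+ untreated sample 4, against 1.45 to 1.69.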

How the results depend on the processing

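Ubd and H2-T22 (sorts after DDC) and H2-Q1 (untreated sorts) kept their call under all 10 alternatives to the fit and under all 14 omissions of a sample. H2-DMb1 after DDC did so too, and untreated it was lost with the slide as a block. Against all genes, quantile normalization moved the median after DDC between the sorts to -0.05, against 0.31. It gave 1 member lower in untreated sorts, a class I median there of 0.11 and of -0.70 for the DDC effect in M+133+ minus M-133- cells, and turned B2m (0.11) and H2-D1 (0.08), which within slide 2 was at 0.07. The cause was not tested. With the slide as a block, 3 members were lower after DDC (class I median -1.31), and untreated 1 was higher and 1 lower. Without the intensity trend, or with only the second repeat array, 1 was lower untreated. With only the first repeat array the class I median was -1.06 untreated and 0.53 for the difference of DDC effects, and with DDC in M-133- cells 2 members were higher. Counting any kept probe of a member gave 11 lower after DDC, 5 lower untreated and 2 lower with DDC in M-133- cells. Within slides, the DDC medians in M-133- cells were 0.32 (class I) and 1.01 (class II) on slide 2 and -1.71 (class II) on slide 1, and the untreated sort median of class II was 0.95 on slide 2.

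The 18 pairs that share a replicate number had r between -0.153 and 0.076, and the 6 that share a title number had r between -0.013 and 0.113. The 48 pairs that share neither had r between -0.163 and 0.153. With the title number as a random block, 9 were lower and 1 higher after DDC. Leaving Ciita and H2-Eb2 out of the class II medians, chosen after seeing the data, gave 0.63 (sorts after DDC), -0.21 (sorts untreated), 0.53 (DDC, M+133+ sort), -0.59 (DDC, M-133- sort) and 0.54 (the first of these effects minus the second). A replicate block gave 7 lower after DDC, 0 lower untreated (2 higher) and 0 lower for DDC in the M-133- sort (1 higher), and no other count changed.

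Leaving out 1 sample gave 5 to 9 lower and 1 higher after DDC, 0 to 4 lower and 1 to 2 higher untreated, 0 to 2 higher and 0 to 1 lower for DDC in the M-133- sort, and 0 for the rest. Medians ranged from -0.81 to -0.30 (class I) and 0.64 to 1.31 (class II) between sorts after DDC, from -0.80 to -0.39 and -0.48 to 0.56 untreated, from -0.87 to -0.29 and 0.37 to 1.29 with DDC in M+133+ cells, and from -0.48 to -0.03 and -1.02 to 0.67 with DDC in M-133- cells. The lowest count after DDC came without M+133+ DDC sample 4 or M-133- DDC sample 1, and the lowest class I median without M+133+ DDC sample 1. Without M+133+ DDC sample 4 the class I median with DDC in M+133+ cells moved most. Signal over background limits Ubd (measured in 0 of 2 M-133- untreated samples), H2-DMb1 (1 of 4 M-133- DDC), Ciita (1 of 4 M-133- DDC and 0 of 2 M-133- untreated) and H2-Eb2 (0 of 6 M-133- samples).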
